A study of Mus musculus with 12 samples.

Results

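The genes described here are the subunits of the proteasome, the factors that assemble, activate or inhibit it, and the ubiquilins, which carry ubiquitin-tagged proteins to it. They were chosen by symbol, with earlier results of these data known. The rule took Psma, Psmb, Psmc, Psmd, Psme, Psmf or Psmg followed by a digit, any symbol starting with Psme, and Ubqln, with pseudogene symbols left out. This gave 51 genes out of 11806 that the authors' deposited table lists, and each of the 51 has an adjusted p there. Of the 56 symbols of the mouse annotation that meet the same rule, 5 were not analysed here, among them Psma8 and Psmb11. One match by name, Psmc3ip, encodes a partner of meiotic recombination and no part of the proteasome, so it was counted with the members but placed in no role.

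The study sequenced 12 single mouse ovarian follicles, 6 fresh and 6 vitrified, that is, cryopreserved by cooling to a glass-like state. All follicles came from CD-1 mice, an outbred stock, aged 16 days, and each was grown alone in a bead of 0.5% alginate for 8 days with recombinant follicle-stimulating hormone at 10 mIU/mL. No gene was altered in either group, and the labels name no difference between the groups other than vitrification. RNA was taken from the lysate of 1 follicle per library, and no label ties a follicle to an animal. If the authors' test took follicles as independent while some came from 1 animal, its p-values would be too small. Each library mixes granulosa cells, the oocyte and any theca cells, so that fewer cells of a type and less RNA per cell cannot be told apart.

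The proteasome is the main protease of the cytosol and nucleus. A barrel of stacked rings, the 20S core, cuts proteins inside a closed chamber, and the 19S cap at its ends binds ubiquitin chains, removes them, unfolds the protein with a ring of ATPases and threads it in. Ubiquilins are shuttle factors: one end binds the cap and the other binds ubiquitin chains, and their middle part holds on to exposed hydrophobic protein segments. In the ovary this system is known for the timed breakdown of cyclins during oocyte meiosis and for protein turnover in growing granulosa cells.

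Vitrified and fresh follicles differed in 1 of the 51 genes at the adjusted p of 0.05. The X-linked shuttle factor gene Ubqln2 rose 2.32-fold by the authors' deposited table, while no subunit of the core or cap passed. Over all genes tested, 0.529% passed in either direction and 0.246% passed as higher, and a count of 1 gene does not set the 51 apart from that share. At an unadjusted p under 0.05 there were 3 of the 51, Ubqln2 and Ubqln1 as higher, where 3.24% of all tested genes were, and Psma3 as lower, where 3.79% were. Of the 31 constitutive subunits, 26 had a log2 fold change below 0, against 53.2% of all 10963 tested genes, but their median was only -0.09, against -0.02 for all tested genes. The subunits were measured in the same follicles and are not independent of each other, and no test of them as a group was made.

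**Figure D1:**
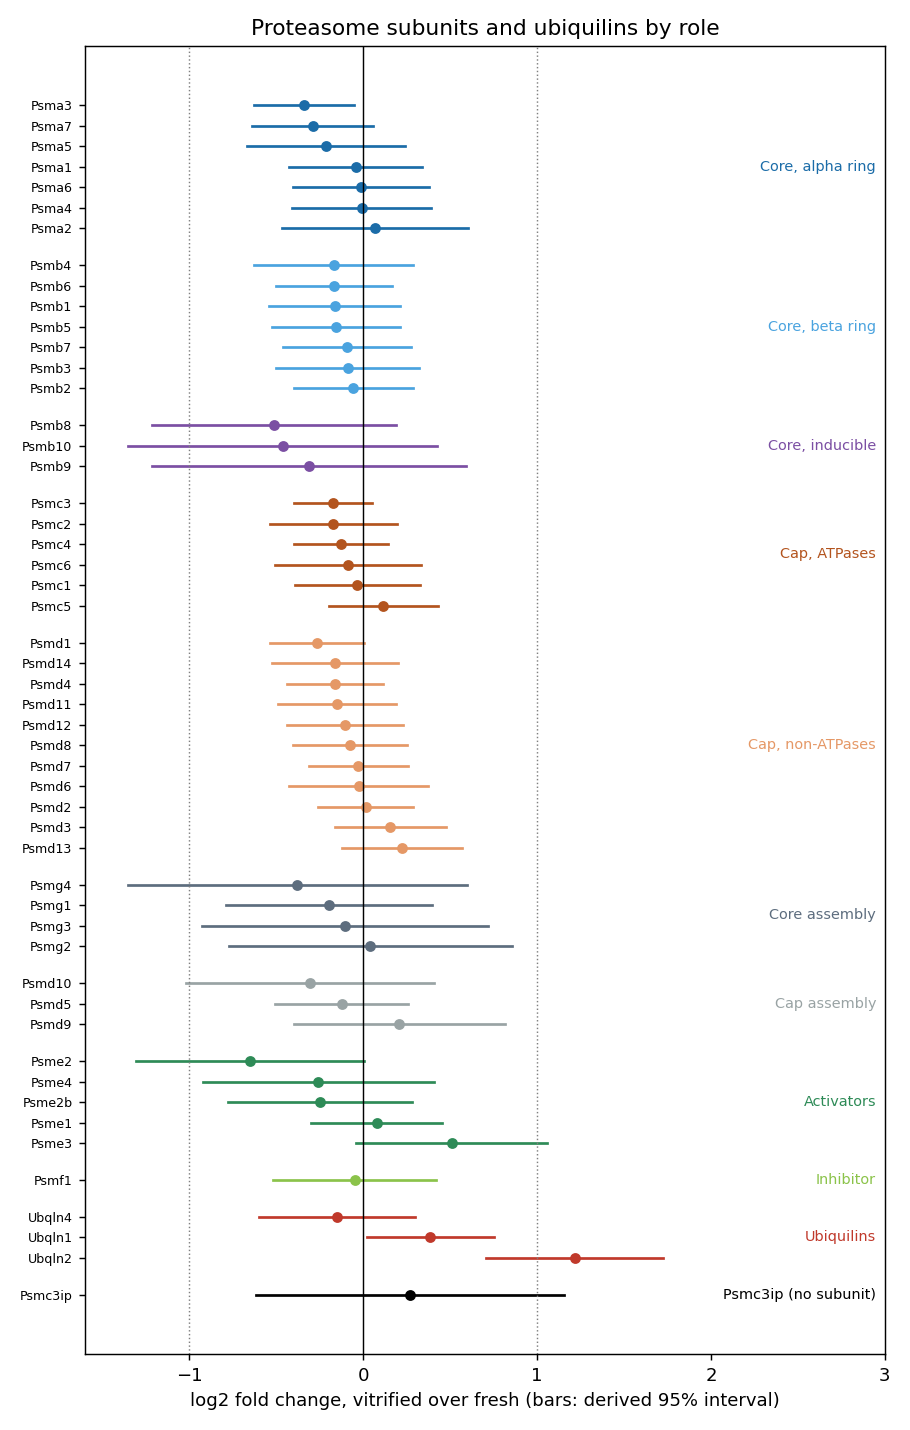
Log2 fold change of vitrified over fresh follicles for each of the 51 genes (points), with 95% intervals derived from the deposited fold change and p-value (bars), grouped by role; dotted lines mark 2-fold. Ubqln2, at 1.22, has a derived interval away from 0 and beyond that of every core and cap subunit, while the 31 core and cap subunits lie between -0.34 and 0.22. The intervals assume a normal test, and the difference between Ubqln2 and any subunit was not tested.

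Of the 3 ubiquilins measured, Ubqln2 passed the test and Ubqln1 and Ubqln4 did not. Ubqln2 lies on chromosome X from 153498227 to 153501570 (GRCm38, plus strand), has 1 exon, and encodes the shuttle factor whose inherited mutations in people cause a form of motor neuron disease with dementia. Its total over the libraries was 584 by the authors' deposited table, a mean of 48.7 per library, since no value per follicle is given. The log2 fold change of Ubqln2 was 1.22 by the authors' deposited table (derived standard error 0.26, 95% interval 0.71 to 1.73, or 1.63-fold to 3.31-fold), with an adjusted p of 0.0026. It ranked 12th by p among the 10963 tested genes and 3rd among those higher in vitrified follicles. Its distance from 0 was reached or passed by 0.912% of the tested genes. The call was lost when the derived statistic was read against a t distribution with 10 degrees of freedom, with an adjusted p of 0.62. The sources used here do not name the authors' test.

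Ubqln1, on chromosome 13 from 58176156 to 58215653, is the most widely expressed ubiquilin and has 10 exons. It showed a log2 fold change of 0.39 (95% interval 0.02 to 0.75) with p = 0.038 and an adjusted p of 0.66 by the authors' deposited table. Ubqln4, on chromosome 3 from 88553758 to 88569725, is a relative known from proteasome targeting and DNA repair. It stood at -0.15 (-0.60 to 0.29) by the authors' deposited table, with p = 0.51. The intervals of Ubqln2 and Ubqln4 did not overlap, and those of Ubqln2 and Ubqln1 overlapped only between 0.71 and 0.75. The difference between ubiquilins was not tested, since that needs values per follicle. Per kilobase of its main transcript, the pooled total was 623 for Ubqln1, 175 for Ubqln2 and 139 for Ubqln4, so that Ubqln1 exceeded Ubqln2 3.57-fold (4.38-fold per kilobase of coding sequence).

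Because ubiquilins are close relatives, their coding sequences bear on whether reads of Ubqln2 could have been counted for Ubqln1. Over 1630 aligned coding bases they were 76.1% identical, and the longest run they share was 35 bases. None of the 50-base windows along the Ubqln2, Ubqln1 or Ubqln4 transcripts, taken every 25 bases, occurs in the transcripts of another gene. The 120 coding bases where Ubqln1 and Ubqln2 are most alike are shown here from the GENCODE transcripts, 519 to 638 of the Ubqln1 and 567 to 686 of the Ubqln2 coding sequence. Capitals mark the 13 positions where they differ.
Ubqln1: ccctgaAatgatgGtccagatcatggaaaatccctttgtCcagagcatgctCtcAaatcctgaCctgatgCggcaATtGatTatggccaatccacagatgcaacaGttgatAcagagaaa
Ubqln2: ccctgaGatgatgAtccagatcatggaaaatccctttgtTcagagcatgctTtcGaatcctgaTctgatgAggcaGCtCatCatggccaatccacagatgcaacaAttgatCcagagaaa
As no shared coding run is longer than 35 bases, a longer coding read of either gene holds at least 1 base that differs.

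The 20S core was measured with 14 constitutive subunits, 7 of the outer alpha rings and 7 of the inner beta rings. None passed the adjusted p (0 of 14) and 1 had an unadjusted p under 0.05, where 7.02% of all tested genes did. The median log2 fold change was -0.12, with 13 of 14 below 0, and centring on the median of all tested genes left 11 of 14 below 0, with Psma4 and Psma6 changing sign. Among the alpha subunits, which form the gate of the chamber, the median was -0.04. Psma3, on chromosome 12 from 70974621 to 70996347, had the lowest p of any subunit. Its log2 fold change was -0.34 (-0.63 to -0.05), p = 0.020 and adjusted p = 0.53 by the authors' deposited table. Psma7 stood at -0.29 and Psma2 at 0.07, the only core subunit above 0, by the authors' deposited table. The alpha subunits with the largest and the smallest total were Psma2 with 3873 and Psma4 with 659, the latter at -0.0078 on the log2 scale, by the authors' deposited table. Psma1, Psma5 and Psma6 lay at -0.04, -0.21 and -0.01 by the authors' deposited table. Of the windows of Psma3, 21.4% occur in the pseudogene Gm13835.

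The beta subunits hold the cutting sites, and all 7 lay within a narrow band from -0.17 to -0.06. Psmb5, with the chymotrypsin-like site, showed a log2 fold change of -0.16 (-0.52 to 0.21) by the authors' deposited table. Psmb6, with the caspase-like site, stood at -0.17 (-0.50 to 0.17) and Psmb7, with the trypsin-like site, at -0.09 (-0.46 to 0.27) by the authors' deposited table. At the ends of the band were Psmb4 at -0.17 and Psmb2 at -0.06, both structural subunits, by the authors' deposited table. Totals in the beta rings ran from 561 for Psmb7 to 2616 for Psmb1, and Psmb1 and Psmb3 stood at -0.16 and -0.09, by the authors' deposited table. The range of the beta subunits was smaller than their median derived standard error of 0.19.

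The inducible subunits Psmb8, Psmb9 and Psmb10 replace Psmb5, Psmb6 and Psmb7 in the immunoproteasome, a form made under interferon and in immune cells. All 3 had low totals, at 219, 83.5 and 83.9 by the authors' deposited table. Per kilobase of transcript, Psmb5 exceeded Psmb8 5.16-fold, Psmb6 exceeded Psmb9 43.4-fold and Psmb7 exceeded Psmb10 7.55-fold. Per kilobase of coding sequence these ratios were 2.98, 23.6 and 6.58, so RNA of the constitutive subunit had the larger pooled level at each site by either length. For Psmb5, Psmb7, Psmb8 and Psmb9, 55.9%, 26.7%, 6.25% and 13.2% of the windows occur in other genes, so these levels are uncertain. The protein of either form was not measured. Psmb8 showed a log2 fold change of -0.51 (-1.21 to 0.19), Psmb10 -0.46 (-1.35 to 0.43) and Psmb9 -0.31 (-1.21 to 0.59) by the authors' deposited table. None passed the adjusted p or an unadjusted p of 0.05 (0 in both), and none of their intervals lay within 2-fold (0 of 3), so a 2-fold fall and no change could not be told apart at this depth. Psmb8 and Psmb9 are neighbours on chromosome 17, from 34197721 to 34201454 and from 34181987 to 34187764, beside the peptide transporter gene Tap1, which stood at -0.08 by the authors' deposited table. A list of 12 interferon and MHC class I genes, of which 8 were tested, had 4 higher and 4 lower and a median of -0.01. In it the class I gene H2-K1 had the lowest value, at -0.61 (p = 0.0029, adjusted p = 0.22) by the authors' deposited table. Of 9 immune cell markers only Lyz2 was tested, at -1.05 (p = 0.040, adjusted p = 0.67) by the authors' deposited table. The 4 tested of 6 endothelial markers were all below 0 with a median of -1.03, none past an unadjusted p of 0.05 (0). Of all tested genes 53.2% were below 0, and 7.02% had an unadjusted p under 0.05. The part of these cells in the values of the inducible subunits was not tested.

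**Figure D2:**
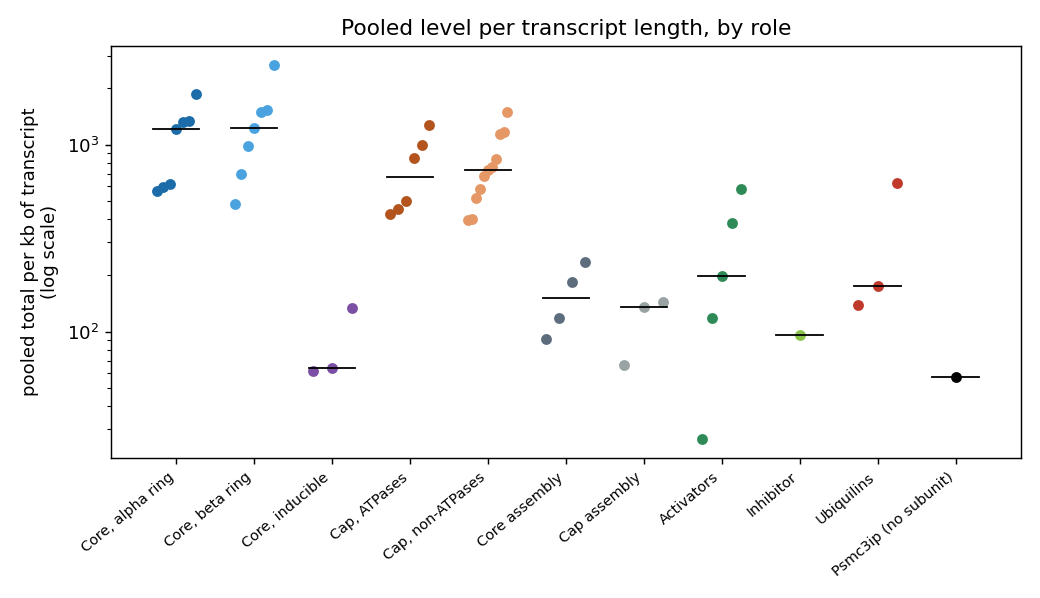
Pooled total of each gene over the libraries per kilobase of its main transcript, on a log scale, by role; horizontal lines are medians. Core subunits have a median of 1221 and cap subunits 732, while the inducible subunits lie between 61.8 and 134.

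The 19S cap was measured with 6 ATPases and 11 other subunits. None passed the adjusted p (0 of 17), and the count at an unadjusted p under 0.05 was also 0. The median log2 fold change was -0.09, with 13 of 17 below 0, and none of these 17 changed sign on centring (0). The derived intervals of all 17 lay within 1.5-fold in either direction, which held for 23.2% of all tested genes and for 53.9% of the 3068 tested genes in the same range of totals as the core and cap subunits. Among the ATPases, which unfold the substrate, Psmc3 was lowest at -0.18 (-0.40 to 0.05) and Psmc5 highest at 0.11 (-0.20 to 0.43) by the authors' deposited table. Totals of the ATPases ran from 763 for Psmc2, at -0.17, to 2095 for Psmc3, by the authors' deposited table. Psmc1, Psmc4 and Psmc6 lay between, at -0.04, -0.13 and -0.09 by the authors' deposited table. Among the others, the scaffold subunit gene Psmd1 was lowest at -0.27 (-0.54 to 0.0025), with p = 0.052, and Psmd13 highest at 0.22 (-0.12 to 0.57), by the authors' deposited table. Psmd2, whose product is the docking site of ubiquilins on the cap, had the largest total of all 51 genes, 4442, and a log2 fold change of 0.01 (-0.26 to 0.29) by the authors' deposited table. Psmd4, a ubiquitin receptor that ubiquilins also bind, stood at -0.16, and Psmd14, which cuts off the ubiquitin chain, at -0.17 by the authors' deposited table. The smallest total of the non-ATPase subunits was 750, for Psmd12, at -0.11 on the log2 scale by the authors' deposited table. Psmd11 stood at -0.15, Psmd8 at -0.08, Psmd7 and Psmd6 each at -0.03, and Psmd3 at 0.15, by the authors' deposited table. The cap subunits outside the naming rule, the ubiquitin receptor gene Adrm1 and the small subunit gene Sem1, had log2 fold changes of 0.39 (p = 0.050, adjusted p = 0.72) and -0.18 by the authors' deposited table. Of the windows of Adrm1, 78.3% occur in other genes, so its value is uncertain. 

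Core and cap together gave 31 subunits with totals from 561 to 4442. Every one had a derived interval within 2-fold, against 69.1% of all tested genes and 91.8% of tested genes in the same range of totals. Within 1.5-fold lay 26 of 31, the others being in the core. At this depth, changes of 2-fold in any constitutive subunit lay outside the derived intervals. Changes of the size seen, with a median distance from 0 of 0.13, did not reach the test. Of the 31, 7 had at least 20% of their windows in other genes, as did 17.8% of all tested genes. Among these, Psmb3, Psma5 and Psmb5 had 58.6%, 58.3% and 55.9%, so their intervals may not be those of the subunit gene alone.

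**Figure D3:**
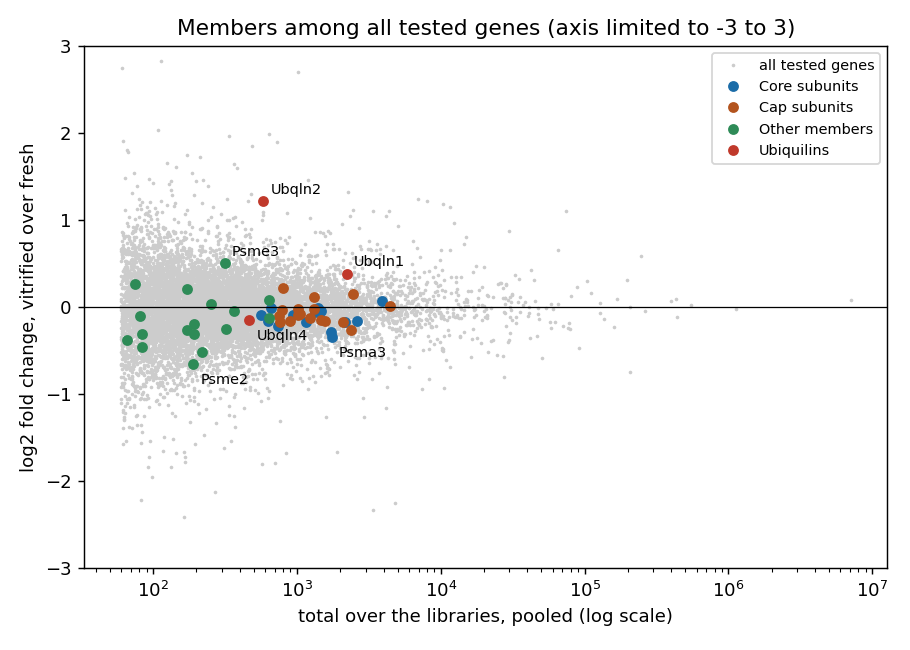
Log2 fold change of vitrified over fresh follicles against the pooled total on a log scale, for all tested genes (grey) and for the 51 genes by role (colours), with the vertical axis limited to -3 to 3. Core and cap subunits lie close to 0 at totals from 561 upwards, and Ubqln2, at a total of 584 and 1.22, stands above them.

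Assembly factors build the core and cap and do not stay in the finished particle. Of the 7 measured, 5 were below 0, and the median log2 fold change was -0.12, none past the adjusted or an unadjusted p of 0.05 (0 in both). The core chaperone genes ran from -0.38 for Psmg4, with a total of only 65.3, to 0.04 for Psmg2, with a total of 251, by the authors' deposited table. The cap chaperone genes ran from -0.31 for Psmd10, also known as gankyrin, to 0.21 for Psmd9 by the authors' deposited table. Psmg1 and Psmg3 stood at -0.20 and -0.11, and Psmd5, which has the largest total of the assembly genes at 634, at -0.12, by the authors' deposited table. Their errors were larger than those of the subunits, with a median derived standard error of 0.36 against 0.18. Pomp, the core maturation factor, which the naming rule does not take in, stood at -0.17 by the authors' deposited table.

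Activators open the core without ubiquitin, and here the widest spread outside the ubiquilins was found. Psme2, on chromosome 14 from 55587441 to 55591113, makes a ring with Psme1 that is induced by interferon. It had the lowest log2 fold change of all 51 genes, -0.65 (-1.31 to 0.0028), with p = 0.051 and adjusted p = 0.72 by the authors' deposited table. Its ring partner Psme1, beside it from 55578123 to 55581529, stood at 0.08 (-0.30 to 0.45) by the authors' deposited table. Psme3, which forms the nuclear activator ring, was higher at 0.51 (-0.04 to 1.06), with p = 0.071, by the authors' deposited table. Psme4, the large activator known from germ cells, showed a log2 fold change of -0.26 (-0.92 to 0.41), and Psmf1, an inhibitor of the core in the test tube, -0.05 (-0.52 to 0.42), by the authors' deposited table. The totals of these genes ran from 173 for Psme4 to 641 for Psme1 by the authors' deposited table. None of these passed (0 of 6 activator and inhibitor genes at either p, adjusted or unadjusted, of 0.05).

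The value of Psme2 is uncertain because of a near-identical copy. Psme2b, an intronless gene on chromosome 11 from 48945354 to 48946190, matches the Psme2 coding sequence at 712 of 717 bases, with an unbroken shared run of 311 bases. Of the windows of Psme2, 59.5% occur in Psme2b, and 68.8% of those of Psme2b occur in Psme2. The first 120 coding bases, shown because no base in them differs, cannot assign a read to either gene.
Psme2: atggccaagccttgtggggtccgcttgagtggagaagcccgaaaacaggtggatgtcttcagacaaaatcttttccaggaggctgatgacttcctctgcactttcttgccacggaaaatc
Psme2b: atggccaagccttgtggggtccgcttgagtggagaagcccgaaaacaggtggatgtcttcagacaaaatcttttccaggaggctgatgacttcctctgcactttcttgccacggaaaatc
The totals were 190 for Psme2 and 321 for Psme2b by the authors' deposited table. The log2 fold change of Psme2b was -0.25 (-0.78 to 0.28), closer to 0 than that of Psme2, by the authors' deposited table. Psme2b also lies within the predicted gene Gm12185.

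Psmc3ip, the name match that is no proteasome gene, showed a log2 fold change of 0.27 (-0.62 to 1.15) at a total of 74.3 by the authors' deposited table, with 13 of its 50 windows shared with Mlx on the opposite strand.

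The promoters of the members were set beside the values, since the transcription factor Nfe2l1 is known to raise proteasome subunits together through the antioxidant response element. RefSeq promoter sequences (GRCm38.p6) were found for 43 of the 51 genes, in 46 windows, and the 250 bases before the start were searched on both strands for TGACNNNGC, the core of that element, and for CCAAT, the NF-Y box. No window of a member held both. TGACNNNGC was found in 4 of 27 windows of core and cap subunits, or 14.8%, against 10.2% of all 32851 RefSeq promoters and 11.6% of those of tested genes. CCAAT was in 10 of the 27, or 37.0%, against 33.8% of all promoters and 36.0% of those of tested genes. Over the 46 windows of all members the shares were 10.9% for TGACNNNGC and 30.4% for CCAAT, near or below those of all promoters. The windows of Ubqln1 and Ubqln4 held neither, and no promoter sequence was found for Ubqln2, so it was not searched. The 4 subunit genes with TGACNNNGC had log2 fold changes with a median of -0.13, and the 21 without it a median of -0.09. Shown are 2 cutting subunits with the TGACNNNGC motif and Psma3, the subunit with the lowest p, with the motifs in capitals. Psmb5 is at chr14:54617996-54618245 on the minus strand, Psmb6 at chr11:70525107-70525356 and Psma3 at chr12:70974373-70974622, both on the plus strand.
Psmb5: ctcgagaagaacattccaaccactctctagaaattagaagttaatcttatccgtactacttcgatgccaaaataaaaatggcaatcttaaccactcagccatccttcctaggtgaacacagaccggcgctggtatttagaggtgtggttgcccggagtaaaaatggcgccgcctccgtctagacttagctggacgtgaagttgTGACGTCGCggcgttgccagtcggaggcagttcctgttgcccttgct
Psmb6: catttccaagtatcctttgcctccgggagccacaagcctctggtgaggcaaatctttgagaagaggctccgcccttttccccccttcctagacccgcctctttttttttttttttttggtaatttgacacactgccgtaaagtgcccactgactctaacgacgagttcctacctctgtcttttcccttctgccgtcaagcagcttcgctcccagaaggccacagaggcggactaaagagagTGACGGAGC
Psma3: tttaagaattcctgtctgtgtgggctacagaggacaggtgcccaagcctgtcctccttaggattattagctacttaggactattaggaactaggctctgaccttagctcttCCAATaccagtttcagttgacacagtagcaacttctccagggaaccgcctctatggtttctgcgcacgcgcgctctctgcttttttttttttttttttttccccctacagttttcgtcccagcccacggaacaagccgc
The motif starts 47 bases before the start in Psmb5 and 9 bases before it in Psmb6, where it reads TGACGTCGC and TGACGGAGC, and the CCAAT box of Psma3 starts 139 bases before it. Such a match is a string of letters and does not show binding.

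The rest of the ubiquitin pathway was followed through 59 genes in lists by function, of which 56 were tested. None passed the adjusted p (0 of 56), where 0.529% of all tested genes did, and 2 had an unadjusted p under 0.05, where 7.02% did. Of the 56, 25 were lower and 31 higher, where 53.2% of all tested genes were lower. The median log2 fold change of the 56 was 0.02. None of the 4 other shuttle factors passed (0 at either p of 0.05). Rad23b stood at -0.10 (-0.77 to 0.57), Ddi2 at 0.35 (-0.13 to 0.83) and Nub1, a regulator of ubiquitin-like modifiers, at 0.10 by the authors' deposited table. Whether any of them differed from Ubqln2 was not tested. Nfe2l1, which drives subunit genes when proteasome activity is short, showed a log2 fold change of 0.10 (-0.24 to 0.44), and Nfe2l2 0.15, by the authors' deposited table.

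Both genes past the unadjusted threshold were lower. Akirin2, which carries proteasomes into the nucleus after mitosis, showed a log2 fold change of -1.39 (-2.37 to -0.42) with p = 0.0052 and adjusted p = 0.30 by the authors' deposited table, on a total of only 71.6. The polyubiquitin gene Ubb stood at -0.22 (-0.73 to 0.29), and the ubiquitin-ribosomal fusion gene Rps27a at 0.10, by the authors' deposited table. The activating enzyme gene Uba1 stood at 0.20, the conjugating enzyme gene Ube2d3 at 0.02, the segregase gene Vcp at 0.0026, Bag6, of a quality control complex, at -0.12, and the autophagy receptor gene Sqstm1 at 0.12 by the authors' deposited table. Of the 56, 51 had intervals within 2-fold, against 69.1% of all tested genes. At least 20% of the windows occur in other genes for 10 of the 56. Among these, Rps27a, Vcp and Ubb had 73.3%, 64.9% and 58.6%.

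**Figure D4:**
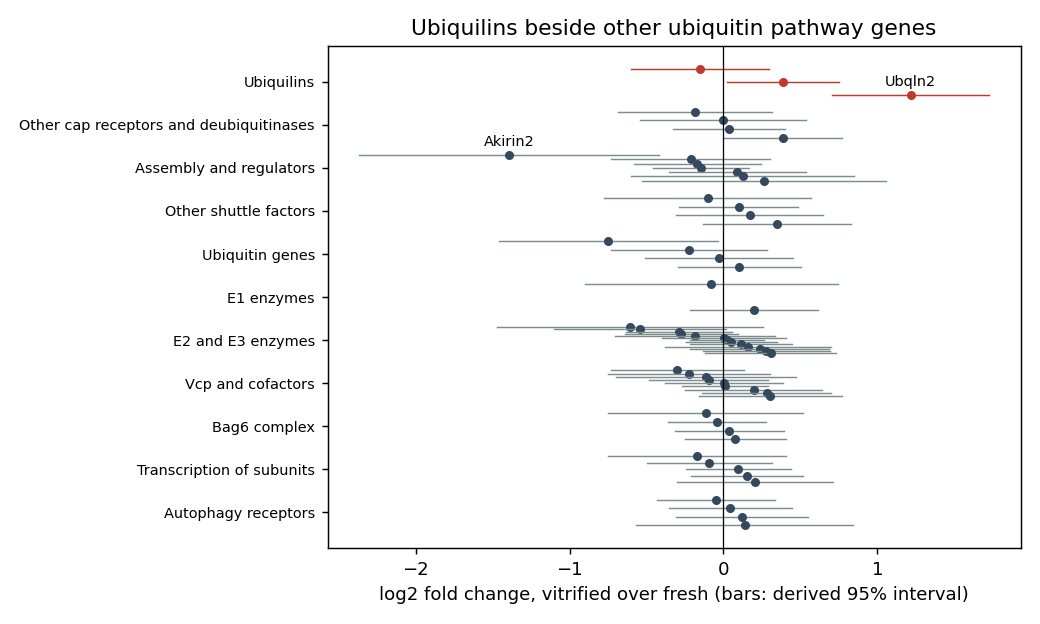
Log2 fold change of vitrified over fresh follicles (points) with derived 95% intervals (bars) for the 3 ubiquilins (red) and 56 other ubiquitin pathway genes by function. Ubqln2, at 1.22, has the highest value, and Akirin2, at -1.39, the lowest.

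Cell markers give the setting of the Ubqln2 value. Of all 10963 tested genes, 5126 were higher, and the median was -0.02. An unadjusted p under 0.05 was found for 7.02% of them, and for 3.24% as higher. The granulosa markers, which include the abundant Inha and Gja1, had 4 of 7 tested genes higher and a median of 0.03. The receptor gene of follicle-stimulating hormone, Fshr, was the only one at an unadjusted p under 0.05, with a log2 fold change of 0.67 (0.14 to 1.20, p = 0.013, adjusted p = 0.44), and Foxl2 had the lowest value, -0.40, by the authors' deposited table. Of 12 oocyte markers 7 were tested, all 7 higher with a median of 0.67 and none at an unadjusted p under 0.05 (0). Of the oocyte markers without an adjusted p, the germ cell gene Dazl went the other way on the log2 scale, at -2.14 (-3.56 to -0.73, p = 0.0030), and Nlrp5 stood at 0.92, by the authors' deposited table. Of 8 theca markers 7 were tested, with 5 higher and a median of 1.19. By the authors' deposited table Star, Insl3 and Aldh1a1 had log2 fold changes of 1.60, 2.70 and 1.19, with unadjusted p of 0.00082, 0.0012 and 0.00068. Cyp17a1 stood at 1.47 (p = 0.057), Lhcgr at 0.08, Hsd3b1 at -0.11 and Ptch1 at -0.15 by the authors' deposited table. No theca marker passed the adjusted p (0). Of the windows of Insl3, 60.9% occur in other genes. Ubqln2 is expressed in many cell types, and the part of oocyte or theca RNA in its value was not tested.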

How the data were processed

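The authors deposited 1 table of their own comparison, and no value per follicle was used. Per the file headers, each gene has a total count over libraries, a signed fold change, a log2 fold change, a p-value and a step-up adjusted p. The total, a pooled signal deposited by the authors, was whole within 0.001 for 0.237% of genes, so it was not treated as a raw count. The signed fold score deposited by the authors was used as its size, and the log2 values deposited by the authors as given. Partek, HISAT2, Bowtie2, DESeq2 and the build mm10 appear in the submitters' processing notes without versions or roles. Counting rule, strand and annotation: not given in the sources used here. Depth per follicle is unknown, and the 51 genes held 0.225% of the summed totals. An adjusted p was missing for 843 genes, all with totals of at most 59.4.

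The authors' adjusted p over all genes, at 0.05, served for each comparison. The standard error was derived as log2 fold change over the normal quantile of the p-value, and the 95% interval from it, assuming a two-sided normal test. This derivation was run on simulated data with 200 changed genes, with an outcome not reported here. Such a run cannot show that the authors' p-values came from a normal test. Symbols were matched to GENCODE mouse release 21 (GRCm38, called mm10) for 98.8% of genes. The principal transcript gave each length and the 50-base windows, searched on both strands in other genes. Python 3.11.15 and Biopython 1.88 were used. Alternatives were other adjustments, a minimum total of 120, centring, a t distribution, wider role groups and leaving out genes with at least 20% shared windows. Named with values were members with p under 0.05, the extremes of each role, all ubiquilins and inducible subunits, and in the pathway lists, with exceptions not reported here, genes with p under 0.05 and the first of each list. Others, such as Psmd4, Psmd14, Psma7, the cutting subunits and the shuttle factors, were added for their role after their values were seen. The members and lists were chosen with earlier results of these data known.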

Additional observations from a re-analysis of the deposited data

How the results depend on the processing

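Across 6 alternatives, the log2 fold change of Ubqln2 ran from 1.22 to 1.24 and its call held in 5, with adjusted p from 0.0018 to 0.62. All 6 reuse the deposited log2 fold change, and only centring shifts it, by the same amount for every gene. Apart from centring and the t distribution, they reuse the deposited p as well. The narrow range was therefore fixed in advance and does not measure how stable the estimate is. Under a t distribution with 10 degrees of freedom its log2 fold change of 1.22 no longer passed, and the number of members called moved to 0 from 1; the heavier tails of that distribution bring this about. Members at an unadjusted p under 0.05 numbered 2 or 3 in each alternative, with Psma3 left out where shared windows reached 20% and Ubqln1 missing under the t distribution. Over the alternatives the medians ranged from -0.16 to -0.10 for the core, -0.10 to -0.07 for the cap and 0.39 to 0.41 for the ubiquilins, for which no wider group was available. The filters on totals could not move them, since these members all have larger totals. No paired analysis was possible because the table holds no value per follicle, and leaving out each follicle in turn was not run for the same reason. Errors were wider at low totals, with a median derived standard error of 0.36 for assembly genes and 0.45 for inducible subunits against 0.18 for core and cap subunits.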

Other observations

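Proteasome subunits have left many processed pseudogenes in the mouse genome, and 12 of those that share at least 3 windows with a member stood among the genes of the authors' deposited table, for 9 members. In the authors' deposited table their totals ran from 45.4 to 805, or from 3.64% to 101% of the total of the parent gene. The highest share was that of Gm3375, whose total of 630 stands beside 624 for Psmb5, with 50.0% of the Psmb5 windows in common, by the authors' deposited table. Gm13835 had 805 beside 1747 for Psma3, Gm8394 431 beside 732 for Psma5 and Gm5422 618 beside 4442 for Psmd2 by the authors' deposited table. Of the 12 pseudogenes, 10 had a log2 fold change below 0, where 53.2% of all tested genes did. Their median was -0.17, against -0.02 for all tested genes. Since the 12 belong to 9 members and share windows with them, their values are not independent, and no test of them as a group was made. An adjusted p was given for 10 of the 12, and 0 of these passed, where 0.529% of all tested genes did. At an unadjusted p under 0.05 there was 1 of the 12, where 7.02% of all tested genes were. It was Gm3375 at -0.41 (95% interval -0.80 to -0.03, p = 0.035), against -0.16 for Psmb5, by the authors' deposited table. The sources used here do not say how reads were divided between parent genes and pseudogenes. No window of the 3 ubiquilins occurs in another gene, but only exact matches of 50 bases in annotated transcripts were searched.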
